A study of Mus musculus with 12 samples.

Results

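Smooth muscle and pericyte genes were followed in gastrocnemius muscle of mouse models of facioscapulohumeral muscular dystrophy (FSHD). The set was 10 genes, Myh11, Acta2, Tagln, Cnn1, Mylk, Mrvi1, Pdgfrb, Rgs5, Cspg4 and Mcam, among 37748 genes in the deposited table, and all 10 were among the 16679 genes with enough counts to be tested. The genes were picked by name. Their choice drew on measured values, because Myh11 and Mrvi1 had been seen to be higher in the moderate model and lower in the severe model, so the values of these 2 genes in those models are given below as a description without a test.

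The poly(A) RNA of 12 mice, 3 in each of 4 groups, was sequenced, with 1 library per mouse. ACTA1-MCM was the only transgene of the control mice. In it the promoter of skeletal muscle actin drives a Cre recombinase that tamoxifen (TMX) activates. FLExD mice carried the conditional transgene for DUX4-fl, the full-length form of the human FSHD gene DUX4, without a Cre transgene. Neither of these groups received TMX according to the labels. Both transgenes were present in the moderate and the severe model. The moderate model was given 1 intraperitoneal injection of 5 mg/kg TMX, and the severe model was given 2 injections of 10 mg/kg on consecutive days. All mice were 13 weeks old, and the treated muscles were taken on day 9. The controls therefore differed from both models in the DUX4 transgene and in TMX, and the effects of these cannot be told apart here.

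Smooth muscle cells surround arterioles and veins, and pericytes lie on capillaries within the basement membrane of the endothelium. Together they are called mural cells. A contractile smooth muscle cell makes its own isoforms of actin (Acta2) and myosin (Myh11) with the proteins that bind and switch them, and these genes are read by serum response factor (SRF) with its cofactor myocardin. Nitric oxide relaxes the cell through cyclic GMP, and Mrvi1 encodes a substrate of the cyclic GMP kinase. Acta2 is also made by activated fibroblasts and by immature skeletal muscle cells. In pieces of whole muscle, fewer cells of a type and less RNA per cell cannot be told apart.

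Libraries held 23796902 to 29136403 counts per mouse. A normalization factor (trimmed mean of M values, TMM) was used, since the most abundant genes took a share of the reads that differed between groups. The 20 most abundant genes of control muscle took 57.7 to 58.5% of counts in controls, 47.3 to 49.3% in the moderate model and 30.4 to 33.2% in the severe model. TMM factors were 0.706 to 0.724 in controls, 0.708 to 0.760 in FLExD mice, 1.06 to 1.13 in the moderate model and 1.69 to 1.87 in the severe model. Levels are CPM, the counts scaled to a fixed total, on the TMM-adjusted library size. A gene was called higher or lower at an adjusted p under 0.05 in the quasi-likelihood test of edgeR with a log2 fold change of at least 0.5 in size. Skeletal muscle markers (Ckm, Acta1, Myh4, Pvalb and Tnnt3) were present in every mouse. Their summed level was 116014 to 164709 CPM in controls and 7202 to 13634 CPM in the severe model, and all 5 were called lower in both models.

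The choice of scaling sets the direction of several of the 10 genes, so it is given before their values. With library size alone and no TMM factor, the median log2 fold change of all genes tested was 0.65 in moderate mice, 1.39 in severe mice and 0.72 between the severe and moderate models. With TMM factors these medians were 0.04, 0.08 and 0.02. Leaving the 20 most abundant control genes out of the library size gave 0.35, 0.69 and 0.32. That last setting was added after seeing the data, and the source of the shift was not tested. With library size alone 8764 genes were called higher and 752 lower in moderate mice, against 4072 and 2830 with TMM factors. For severe mice the split was 12580 higher and 1070 lower, against 5480 and 4648. Between the severe and moderate models it was 9648 and 823, against 2943 and 3139. Ratios between genes within a library do not depend on this scaling and are given beside the fold changes.

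Where the genes lie was read from GENCODE M21 on GRCm38, the build of the files. Myh11 is on chromosome 16 at 14194535 to 14291372 (minus strand), and Mylk is on the same chromosome at 34745210 to 35002420 (plus strand). Acta2 lies on chromosome 19 at 34241090 to 34255590 (minus strand), Mrvi1 on chromosome 7 at 110868266 to 110982461 (minus strand) and Rgs5 on chromosome 1 at 169655501 to 169695813 (plus strand). Chromosome 9 holds Tagln at 45929619 to 45936058 (minus strand), Cnn1 at 22099216 to 22109630, Cspg4 at 56865033 to 56899870 and Mcam at 44134469 to 44142727 (all plus strand). The deposited counts were made by the authors on an annotation they merged from other sources, so the exons counted can differ from those of GENCODE M21.

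The promoters of the genes are shown where they hold an SRF or TEAD motif, because both factors drive contractile genes. RefSeq promoters (GRCm38.p6) were found for 7 of the 10 genes, and the 250 bases before each start were searched on both strands. An exact CArG box, the motif of SRF, was in 1.47% of 32851 promoters and in none of the 7 genes. A CArG box with up to 1 mismatch in its core was in 8.59% of promoters, and of the 7 genes only Acta2 held any, at 84 to 75 and at 34 to 25 bases before its start. The M-CAT motif of TEAD factors (CATTCC or GGAATG) was in 12.6% of promoters and in Acta2, Mrvi1 and Mylk. No motif overlapped another in these genes. Myl9, another smooth muscle gene, and Actc1, a sarcomeric actin, are shown for an exact CArG box. Capitals mark the motif.
Acta2 CArG with 1 mismatch, chr19:34255438-34255467 minus strand: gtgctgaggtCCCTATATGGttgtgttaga
Acta2 CArG with 1 mismatch, chr19:34255388-34255417 minus strand: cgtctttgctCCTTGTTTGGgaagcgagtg
Acta2 M-CAT, chr19:34255502-34255531 minus strand: gagcagaacagaGGAATGcagtggaagaga
Mrvi1 M-CAT, chr7:110982560-110982589 minus strand: tgggacaggaaaCATTCCcagcttctgctg
Mylk M-CAT, chr16:34784780-34784809 plus strand: tgcagttcagaaCATTCCctggtacgtgca
Myl9 exact CArG, chr2:156775293-156775322 plus strand: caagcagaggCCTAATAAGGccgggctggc
Actc1 exact CArG, chr2:114052903-114052932 minus strand: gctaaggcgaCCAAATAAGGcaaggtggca
The Acta2 windows lie before the RefSeq start but inside the first exon of a longer GENCODE transcript. Cnn1, Rgs5, Cspg4 and Mcam held none of these letters in this window.

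In control muscle the 10 genes spanned a wide range of levels per length, measured as transcripts scaled to a fixed total (TPM). Rgs5 was the most abundant at 73.5 ± 11.1 TPM (SD, n = 3). Acta2 (14.9 TPM) and Tagln (13.7 TPM) followed and overlapped each other. Mcam (7.24 TPM), Mylk (6.28 TPM), Pdgfrb (4.82 TPM) and Myh11 (4.80 TPM) formed a chain in which each gene overlapped the next. Cspg4 (1.80 TPM), Mrvi1 (1.29 TPM) and Cnn1 (0.583 TPM) were lowest, and none of these overlapped its neighbor. In the severe model Acta2 stood first at 184 ± 41.8 TPM (n = 3), above Rgs5 at 42.8 TPM and Tagln at 32.9 TPM, and the latter pair overlapped. Myh11 was then eighth of the 10 genes at 4.93 TPM.

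**Figure D1:**
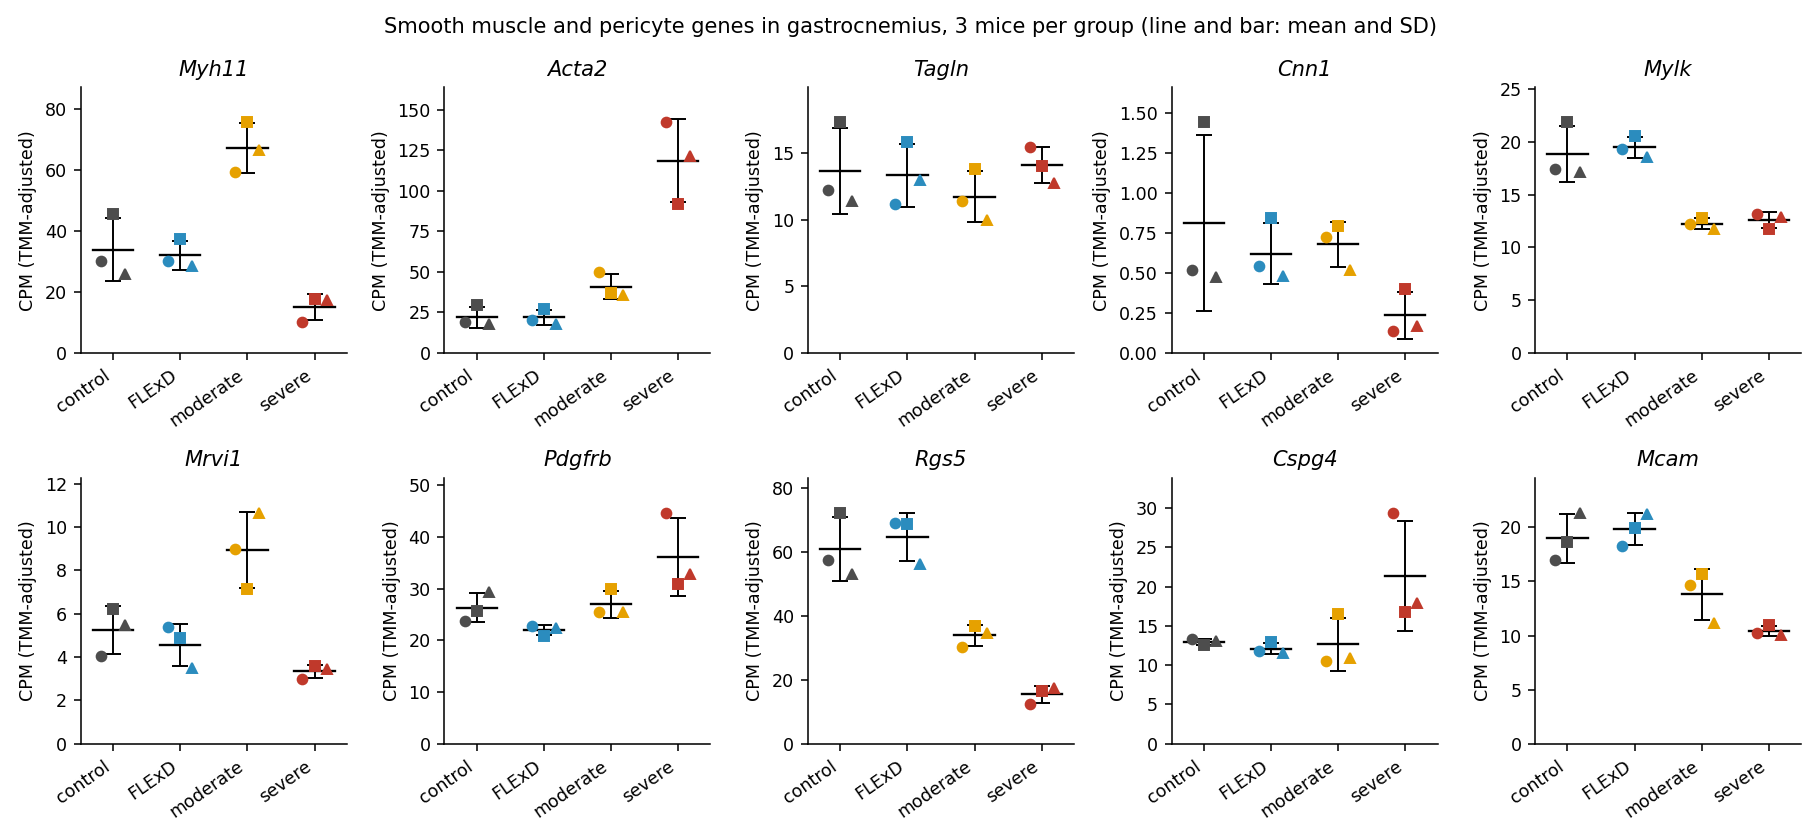
CPM on TMM-adjusted library sizes (vertical axes, each from 0) of the 10 genes in the 12 mice, by group. Each symbol is 1 mouse (circle, square and triangle for mice 1 to 3 of a group), and the line and bar give the mean and SD of 3 mice. Acta2 rises from 22.1 (controls) to 119 (severe), Rgs5 declines from 61.0 to 15.4, and Myh11 is highest in the moderate model at 67.1.

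FLExD mice, which carry DUX4-fl without Cre, were compared with controls, which carry ACTA1-MCM without DUX4-fl, so the comparison spans both transgenes and the part of each cannot be told apart. None of the 10 genes was called by edgeR, and none reached an unadjusted p under 0.05 in edgeR, DESeq2 or limma. Over all genes tested, 0.00600% (1 gene) were called. The median log2 fold change of the 10 genes was -0.06, against -0.00 for all genes. An exact permutation test of 3 mice against 3 reaches no p under 0.10. In a set of 10 genes, 1 gene with separate groups is therefore described here and not read as a difference. Pdgfrb alone had groups that did not overlap, at 20.8, 22.5 and 22.7 CPM in FLExD mice and 23.8, 25.8 and 29.4 CPM in controls, with a log2 fold change of -0.26 and a 95% interval of -0.52 to 0.0016. The adjusted p for Pdgfrb was 1.

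Myh11 and Mrvi1 were chosen on the contrasts of the models and are left out of the counts of calls here. Of the other 8 genes, 1 was called up (Acta2) and 2 down (Mylk and Rgs5) in the moderate model. Over all genes tested, 41.4% were called there, 24.4% higher and 17.0% lower. In the severe model, 2 were called higher (Acta2 and Cspg4) and 4 lower (Cnn1, Mylk, Rgs5 and Mcam), where 60.7% of all genes were called, 32.9% higher and 27.9% lower. Between the severe and moderate models, 2 were called higher (Acta2 and Cspg4) and 2 lower (Cnn1 and Rgs5), against 36.5% of all genes, 17.6% higher and 18.8% lower. The median log2 fold change of the 8 genes was -0.24 in moderate mice, -0.27 in severe mice and 0.15 between them. Of the 8, 3 were called higher and 0 lower in moderate mice with library size alone, 5 and 1 in severe mice, and 5 and 0 between the models. Nothing is read from these counts about the set, since it was picked with earlier results of these mice known. All calls against control share the same 3 control mice.

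Among the contractile proteins, Acta2, the smooth muscle alpha-actin, rose in both models. It was at 18.9, 29.6 and 18.0 CPM in controls, 20.5, 27.4 and 17.9 CPM in FLExD mice, 49.8, 37.3 and 35.6 CPM in moderate mice and 143, 91.7 and 122 CPM in the severe model. The control, moderate and severe groups did not overlap, and each step was upward. In log2 units Acta2 was higher by 0.89 (SE 0.23, adjusted p = 0.00708) in the moderate model and 2.42 (SE 0.24, adjusted p = 2.01e-06) in the severe model. The severe model exceeded the moderate model by 1.54 (SE 0.23, adjusted p = 0.000192). Acta2 was higher under every scaling, by 3.73 in severe mice if only the library size was used.

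Acta2 reads could in part belong to other actins, because single reads of 50 bases were mapped and RSEM divides a read among the genes it fits. Of all 50-base windows along the longest coding Acta2 transcript, 1.81% matched another actin with at most 2 mismatches. The largest part was shared with Actg1, at 1.41%. Actb, the abundant cytoplasmic actin, was called higher by 1.14 in the moderate model and 2.07 in the severe model, and Actg1 by 0.64 and 1.50. Acta1, the skeletal actin, was called lower by 1.70 and 3.48, in log2 units, and shared 0.403% of the windows.

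Myh11, the smooth muscle myosin heavy chain, did not follow Acta2. It was at 30.1, 45.5 and 26.0 CPM in controls, 30.1, 37.2 and 28.5 CPM in FLExD mice, 59.2, 75.7 and 66.3 CPM in moderate mice and 10.1, 17.6 and 17.5 CPM in the severe model. On this scale the 3 moderate mice lay above all controls and the 3 severe mice below all controls. In TPM the moderate mice were also above, at 11.1, 15.6 and 12.5, but the severe mice, at 3.48, 6.11 and 5.20, overlapped the controls, at 4.21, 6.32 and 3.86. The log2 fold change, which chose this gene and is not tested here, was 0.99 in moderate mice, -1.17 in severe mice and -2.16 between the severe and moderate models. The severe value of Myh11 depended on the scaling, at 0.12 with library size alone and -1.26 relative to the median gene of that scaling. Myh11 was lower in the severe than in the moderate model under every scaling tried, by a log2 value of -1.47 with library size alone. This contrast chose the gene, so its sign under other scalings of the same libraries adds no support. Of 50-base windows along its longest coding transcript, 1.92% matched the non-muscle myosins Myh9 or Myh10 with at most 2 mismatches.

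The ratio of Acta2 to Myh11 within a library was higher in the severe model. In TPM it was 2.95 to 3.24 in controls, 2.95 to 3.48 in FLExD mice, 2.38 to 4.09 in the moderate model and 24.6 to 66.4 in the severe model. The moderate model spanned the control range, and the severe model lay far above it. The 3 severe mice thus stood apart from the other 9 mice in this ratio. The ratio of Acta2 to Tagln moved in both models, from 1.03 to 1.14 in controls to 1.81 to 2.92 in the moderate model and 4.36 to 6.37 in the severe model, with no overlap.

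**Figure D2:**
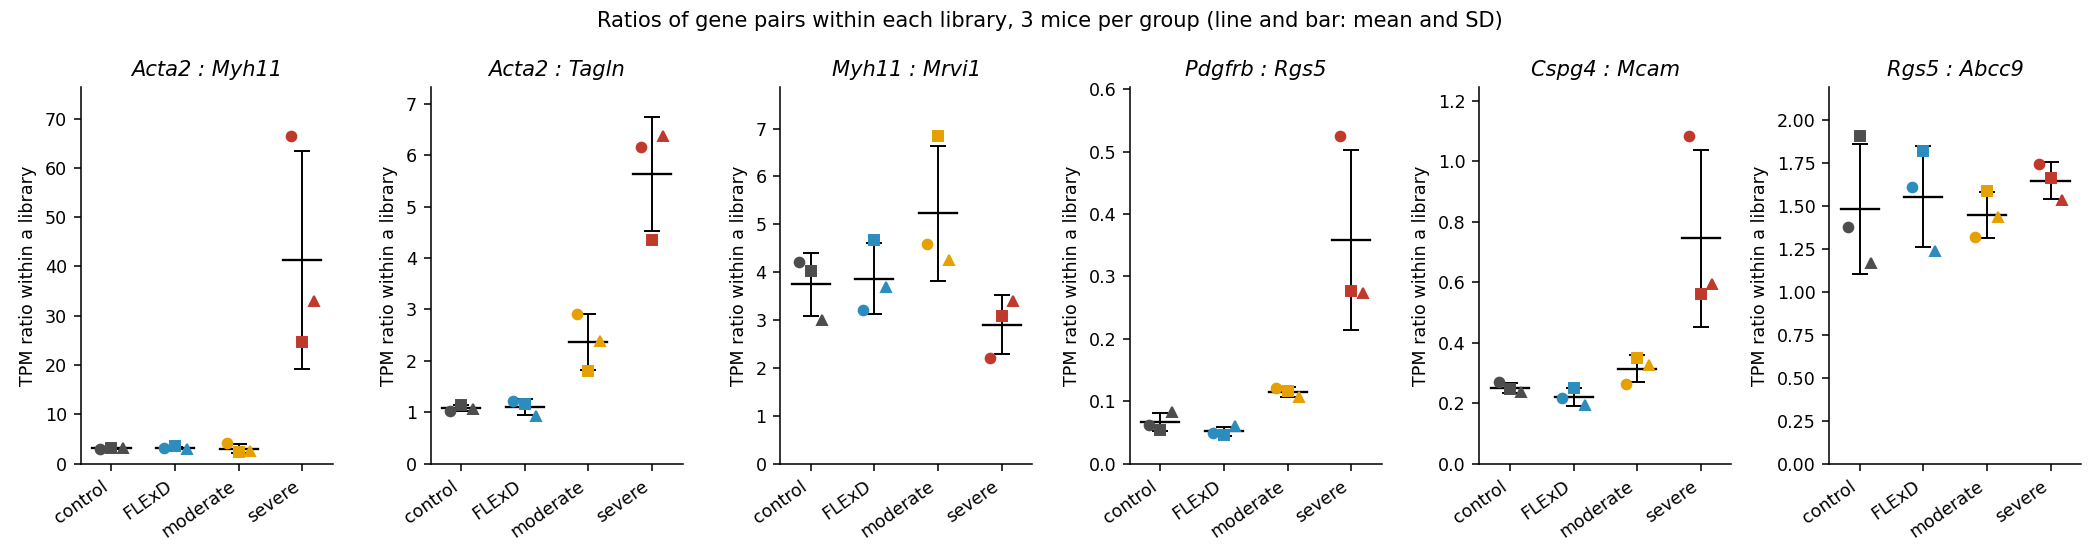
TPM ratios of 6 gene pairs within each library (vertical axes from 0), by group. Symbols are mice 1 to 3 of each group, and the line and bar give the mean and SD of 3 mice. Acta2 to Myh11 stays at 2.38 to 4.09 in 9 mice and reaches 24.6 to 66.4 in the severe model, while Rgs5 to Abcc9 overlaps in all 4 groups. Ratios that hold Myh11 or Mrvi1 carry the choice of these genes on the contrasts of the models.

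Tagln (transgelin, or SM22-alpha), an actin-binding protein often used with Acta2 to mark smooth muscle, was not called by edgeR with TMM factors in any comparison. It was at 12.2, 17.3 and 11.4 CPM in controls, 11.4, 13.8 and 9.99 CPM in moderate mice and 15.4, 14.1 and 12.8 CPM in the severe model. The groups overlapped. Tagln had a log2 fold change of -0.22 (adjusted p = 0.302) in the moderate model and 0.05 (adjusted p = 0.824) in the severe model, with a 95% interval of -0.29 to 0.38. Scaled by library size alone, the severe value for Tagln was 1.35 (adjusted p = 6.54e-06) and called, against a shift of the median gene of 1.39. In limma on log2(TPM + 1) it was 1.21 (adjusted p = 4.16e-05), also called. In GENCODE M21, 67.9% of its exon bases are shared with genes on the opposite strand, Pcsk7 and Gm48529. The share in the annotation used for the counts was not examined. The strand setting of the library was not given in the sources used here. The expected counts of Tagln were whole numbers in all 12 mice and those of Pcsk7 were not. Whether reads of the shared bases were assigned by strand was not tested. Pcsk7 had 238 to 254 counts in controls and 547 to 623 in the severe model, where Tagln had 528 to 685.

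Cnn1 (calponin 1), which binds actin and slows its interaction with myosin, was the rarest of the 10 genes, with 6 to 30 counts per mouse. It was at 0.518, 1.45 and 0.474 CPM in controls, 0.726, 0.793 and 0.522 CPM in moderate mice and 0.135, 0.401 and 0.169 CPM in the severe model. On this scale the severe mice were lowest and did not overlap the controls, and control mouse 2 stood above both other controls. In TPM the severe mice, at 0.30, 0.62 and 0.33, overlapped the controls, at 0.43, 0.90 and 0.42. Cnn1 fell in the severe model by 1.78 on the log2 scale (SE 0.50, adjusted p = 0.00532) and was lower than in the moderate model by 1.52 on that scale (SE 0.48, adjusted p = 0.0177). Without control mouse 2 the severe log2 fold change was -1.08 and no longer called (adjusted p = 0.0714). The difference between the models was also lost without moderate mouse 2 (adjusted p = 0.0553), severe mouse 1 (0.0735) or severe mouse 3 (0.0595). In the moderate model Cnn1 was at -0.26 (adjusted p = 0.657). With library size alone the severe value was -0.49 (adjusted p = 0.359), and in limma on log2(TPM + 1) it was -0.15 (adjusted p = 0.272), so neither called Cnn1.

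Mylk, the kinase that phosphorylates the myosin light chain and starts smooth muscle contraction, fell in both models with TMM factors but not with library size alone. It was at 17.5, 21.9 and 17.2 CPM in controls, 12.2, 12.8 and 11.7 CPM in moderate mice and 13.2, 11.7 and 12.9 CPM in the severe model. Both models lay below all controls and overlapped each other. For Mylk the log2 fold change was -0.62 (SE 0.10, adjusted p = 0.000151) in the moderate model and -0.58 (SE 0.10, adjusted p = 0.000132) in the severe model, and the models differed by 0.04 (adjusted p = 0.757) with a 95% interval of -0.16 to 0.24. Without control mouse 2 the severe value was -0.48, inside the fold threshold. Scaling by library size alone put Mylk at -0.02 in moderate and 0.72 in severe mice, or -0.66 in both relative to the median gene. Under that scaling Mylk was called higher in the severe model. It was also called higher in the severe than in the moderate model, at 0.74.

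Mrvi1, which binds the IP3 receptor and is a substrate through which cyclic GMP lowers calcium release in smooth muscle, had the same order of mean CPM over the groups as Myh11. It was at 4.04, 6.21 and 5.50 CPM in controls, 5.36, 4.86 and 3.47 CPM in FLExD mice, 8.99, 7.14 and 10.7 CPM in moderate mice and 3.00, 3.59 and 3.43 CPM in the severe model. On this scale all moderate mice were above and all severe mice below the controls. In TPM the moderate mice were at 2.42, 2.28 and 2.93, above the controls at 1.00, 1.57 and 1.29, and the severe mice, at 1.57, 1.98 and 1.53, were not below them. Its log2 fold change, which also chose it, was 0.76 in moderate mice, -0.66 in severe mice and -1.42 between them. Under library size alone its severe value was 0.64, or -0.74 relative to the median gene. The ratio of Myh11 to Mrvi1 was 2.99 to 4.21 in controls, 4.25 to 6.84 in the moderate model and 2.22 to 3.40 in the severe model, and 3.22 to 4.67 in FLExD mice, which overlapped every other group. Over the 12 mice the Pearson correlation of log2 CPM between Myh11 and Mrvi1 was 0.883, which describes group levels and shared libraries. Both genes were chosen for the same pattern over the models, so their shared order and this correlation follow in part from that choice.

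**Figure D3:**
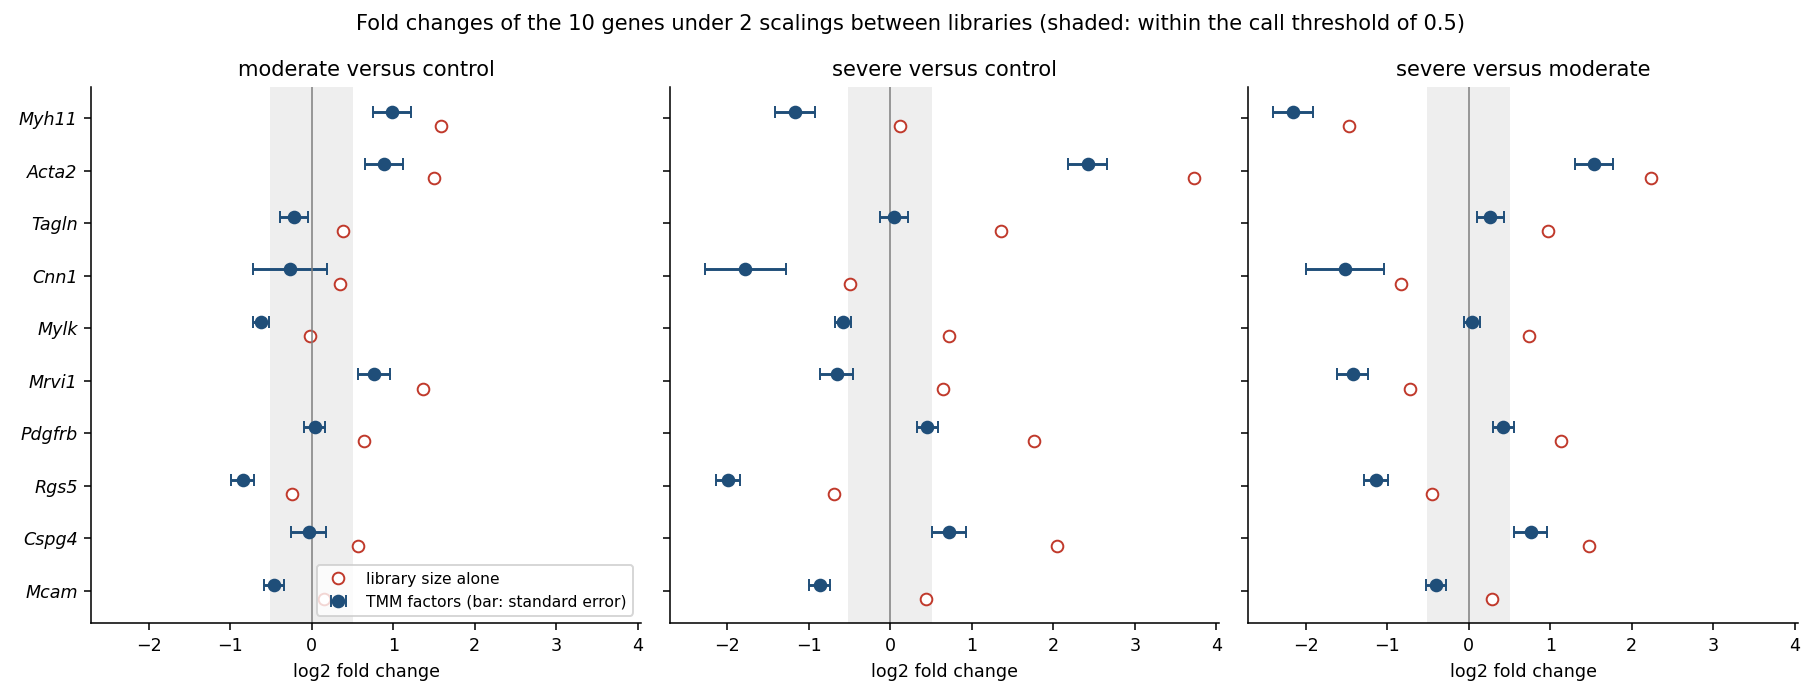
Log2 fold changes (horizontal axes) of the 10 genes in 3 comparisons. Filled points are the edgeR values with TMM factors and their standard errors, open points the values with library size alone, and the shaded band lies within the fold threshold of 0.5. With TMM factors Myh11, Mylk, Mrvi1 and Mcam lie below 0 for severe against control, and these 4 lie above 0 when only library size is used, while Acta2 is above 0 and Rgs5 below 0 in both.

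Of the pericyte genes, Rgs5, a regulator of G-protein signaling and the most abundant of the 10 genes in controls, declined in both. It was at 57.6, 72.4 and 53.1 CPM in controls, 69.2, 68.9 and 56.2 CPM in FLExD mice, 30.4, 36.7 and 34.7 CPM in moderate mice and 12.3, 16.4 and 17.4 CPM in the severe model. The control, moderate and severe groups did not overlap, and each step was downward. For Rgs5 the log2 fold change was -0.85 (SE 0.14, adjusted p = 0.000218) in the moderate model and -1.99 (SE 0.15, adjusted p = 3.72e-08) in the severe model. The severe model was below the moderate model by a log2 value of -1.14 (SE 0.15, adjusted p = 3.2e-05). Rgs5 had a negative log2 fold change in both models under every scaling, at -0.24 (adjusted p = 0.0925) and -0.69 (adjusted p = 0.000102) with library size alone.

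Pdgfrb, the receptor through which PDGF-B recruits pericytes and which fibroblasts also carry, did not fall with Rgs5. The gene lies on chromosome 18 at 61045150 to 61085061 (plus strand). It was at 23.8, 25.8 and 29.4 CPM in controls, 25.5, 30.0 and 25.4 CPM in moderate mice and 44.8, 30.9 and 32.8 CPM in the severe model. The moderate mice overlapped the controls, and the severe mice lay above them. The log2 fold change was 0.03 (adjusted p = 0.845) in the moderate model and 0.46 (SE 0.13, adjusted p = 0.00612) in the severe model, where the adjusted p passed and the fold threshold was not reached. With library size alone Pdgfrb was called higher in both models, at 0.64 (adjusted p = 0.00201) and 1.77 (adjusted p = 6.02e-08), against median shifts of 0.65 and 1.39. In limma on log2(TPM + 1) it was called in the severe model, at 1.42 (adjusted p = 1.39e-06), and its moderate value was 0.38 (adjusted p = 0.0546). Without control mouse 3, severe mouse 2 or severe mouse 3, Pdgfrb was called higher in the severe model, at 0.53, 0.56 and 0.52. Between the severe and moderate models Pdgfrb differed by 0.42 (adjusted p = 0.0142), also inside the fold threshold. Relative to Rgs5 within a library, Pdgfrb was at 0.0546 to 0.0832 in controls, 0.106 to 0.122 in the moderate model and 0.273 to 0.524 in the severe model, and these ranges did not overlap.

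Cspg4, the NG2 proteoglycan of pericytes and of other progenitor cells, rose in the severe model. It was at 13.3, 12.5 and 13.1 CPM in controls, 10.5, 16.5 and 10.9 CPM in moderate mice and 29.4, 16.8 and 17.9 CPM in the severe model. The severe mice lay above the other groups, and severe mouse 1 stood far above both others. The log2 fold change was 0.72 (SE 0.21, adjusted p = 0.0076) in the severe model, 0.76 (SE 0.21, adjusted p = 0.00831) between the severe and moderate models and -0.04 (adjusted p = 0.902) in the moderate model. Without severe mouse 1 the first and second of these were 0.42 and 0.46, and neither was called. The severe value was 2.04 (adjusted p = 2.03e-06) with library size alone and 1.38 (adjusted p = 1.3e-05) in limma on log2(TPM + 1), both called. The same severe mouse had the highest Acta2 and Pdgfrb and the lowest Myh11, Mrvi1 and Rgs5 of the 3 severe mice.

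Mcam (CD146), an adhesion molecule of pericytes, smooth muscle and endothelium, fell in the severe model with TMM factors but not with library size alone. It was at 16.9, 18.6 and 21.4 CPM in controls, 14.6, 15.7 and 11.1 CPM in moderate mice and 10.2, 11.0 and 10.1 CPM in the severe model. On this scale both models lay below all controls, and the severe mice lay below the moderate mice. In TPM the 3 groups overlapped, at 6.31, 7.04 and 8.38 in controls, 7.33, 8.98 and 5.75 in moderate mice and 8.55, 10.05 and 7.95 in severe mice. The log2 fold change was -0.87 (SE 0.13, adjusted p = 2.32e-05) in the severe model. In the moderate model it was -0.46 (SE 0.13, adjusted p = 0.00648), inside the fold threshold, and it was called lower there without control mouse 1 or 2 or moderate mouse 1 or 2, at -0.50 to -0.56. Under library size alone Mcam was at 0.15 in moderate and 0.44 in severe mice, or -0.50 and -0.95 relative to the median gene. The ratio of Cspg4 to Mcam was 0.236 to 0.269 in controls and 0.560 to 1.08 in the severe model.

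Other contractile smooth muscle genes were called in both directions. Of 12 on a list (Smtn, Lmod1, Actg2, Synpo2, Myl9, Cald1, Itga8, Kcnmb1, Ppp1r14a, Ppp1r12a, Csrp1 and Sncg), 11 were tested, and 1 rose and 3 fell in moderate mice. In severe mice 3 rose and 5 fell. Over all genes, 24.4% rose and 17.0% fell in moderate mice, and 32.9% and 27.9% in severe mice. The counts of the 11 genes were 4 and 2, then 7 and 2, with library size alone. Their median log2 fold change was -0.47 in moderate and -0.41 in severe mice, against 0.04 and 0.08 for all genes. Synpo2, an actin-bundling protein that skeletal muscle makes as well, was called lower at -1.56 and -2.73. Lmod1 (leiomodin 1), which nucleates actin filaments, was called lower at -2.48 and -2.28. Ppp1r14a, an inhibitor of myosin phosphatase, was called lower in the severe model at -1.39 (adjusted p = 0.00128), and its moderate value was -0.47 (adjusted p = 0.217). Sncg was called lower in the severe model at -1.30, a value of 0.0098 under library size alone. Cald1 (0.78), Csrp1 (0.65) and Ppp1r12a (0.59) were called higher in the severe model. The exact-CArG gene Myl9 fell in the moderate model at -0.85 (adjusted p = 0.00211), and its severe value was -0.41 (adjusted p = 0.063). Kcnmb1, a channel subunit largely confined to smooth muscle, had at most 3 counts in any mouse.

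Of 9 regulators of these genes, 8 were tested, since Myocd (myocardin) had at most 7 counts in any mouse. In moderate mice 2 rose and 3 fell, and in severe mice 2 rose and 4 fell. Over all genes the shares were 24.4% and 17.0%, then 32.9% and 27.9%. Scaled by library size, 3 and then 4 of the 8 were higher and 0 lower by edgeR. The medians of the 8 genes were -0.36 and -0.29. Srf fell at -0.88 (adjusted p = 7.56e-06) and -1.48 (adjusted p = 1.67e-08), but skeletal muscle also uses it. Gata6 was called lower at -1.43 and -1.77. Its level in controls was 0.565 CPM. Heyl, an effector of Notch signaling, was called higher in the severe model at 1.81 (adjusted p = 2.36e-06). Tbx18, a transcription factor of mural cells, was called higher at 0.97 and 1.42.

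Mrvi1 acts in the nitric oxide and cyclic GMP pathway. In moderate mice edgeR called none of its 10 listed genes higher and 4 lower, and in severe mice 1 rose and 7 fell, where 17.0% and then 27.9% of all genes were lower. Without TMM factors 4 were higher and 1 lower in each model. Their median log2 fold changes were -0.35 and -1.05. Nos1, the neuronal nitric oxide synthase that skeletal muscle fibers make, fell at -1.95 and -4.06. Nos3, the endothelial synthase, fell at -0.62 and -1.34 with TMM factors. In TPM its mean was 1.83 in controls, 1.67 in moderate and 1.70 in severe mice. The guanylate cyclase subunit Gucy1a3 fell at -1.09 and -1.53, and Gucy1a2 at -1.27 in the severe model, where library size alone gave 0.035. Pde5a, which breaks down cyclic GMP, was the gene called higher in the severe model, at 1.18 (adjusted p = 5.17e-06). The direct partners of Mrvi1 were not called. Prkg1, the cyclic GMP kinase, was at 0.11 and -0.09, and Itpr1, the IP3 receptor, was at -0.04 and -0.25. With library size alone the severe values of Prkg1 and Itpr1 were 1.21 and 1.05.

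Other pericyte genes were called in both directions. Of 12 listed, 3 rose and 5 fell in moderate mice, and 4 rose and 7 fell in severe mice, where 24.4% and 17.0%, then 32.9% and 27.9%, of all genes did so. The counts without TMM factors were 5 higher and 1 lower, then 5 and 2. Their summed level was 420 to 482 CPM in controls and 178 to 198 CPM in the severe model, but 80.5 to 96.9 and 97.5 to 110 in TPM. Their medians were -0.22 and -1.11. Kcnj8 and Abcc9 encode the pore and the regulatory subunit of a potassium channel that ATP closes. Kcnj8 fell at -1.28 and -2.39, and Abcc9 at -0.82 and -2.14. Abcc9 is also made by muscle fibers, and its level was 370 CPM in controls. The TPM ratio of Rgs5 to Abcc9 was 1.17 to 1.91 in controls, 1.32 to 1.58 in the moderate model and 1.54 to 1.74 in the severe model, so all groups overlapped. Cox4i2 was called lower in the severe model at -2.10. Rgs4, a relative of Rgs5, was called higher at 2.22 in the moderate model (adjusted p = 1.05e-05) and 1.25 in the severe model (adjusted p = 0.000559), and was lower in the severe than in the moderate model at -0.97 (adjusted p = 0.00332).

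Signals that recruit mural cells to vessels moved in both directions. Of 10 listed genes, 3 rose and 3 fell in moderate mice, and 4 rose and 4 fell in severe mice. Over all genes the shares were 24.4% and 17.0%, then 32.9% and 27.9%. Without TMM factors 5 of the 10 listed genes were higher and 1 lower, then 8 and 1. Their medians were -0.07 and 0.06. Pdgfb, the ligand of Pdgfrb made by endothelium, fell in the severe model at -0.77 (adjusted p = 8.05e-05), and its moderate value was -0.26 (adjusted p = 0.0985). Pdgfc, a ligand of the related receptor Pdgfra, was called higher at 1.00 and 2.17. Angpt1, which mural cells make, was called higher at 1.50 and 1.27, and its receptor Tek fell at -0.55 and -1.09. Dll4, a Notch ligand of endothelium, fell at -1.35 and -2.34. Under library size alone the severe values were 0.53 for Pdgfb and 0.21 for Tek.

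Among relatives of the 10 genes, striated muscle genes included, calls went both ways. Of 13 paralogs, 12 were tested, and 7 rose in each model, where 24.4% and 32.9% of all genes did, while 3 fell in moderate and 4 in severe mice. Their medians were 0.74 and 1.51. Tagln2, the relative of Tagln outside smooth muscle, was called higher at 1.56 and 2.07. Cnn2 was called higher at 0.96 and 1.51, and Cnn3 at 0.85 and 2.09. Myh9, a non-muscle myosin, was called higher at 1.18 and 2.03, while Myh10 was at -0.23 and -0.13 and not called. Lrmp, the relative of Mrvi1, was called higher at 1.87 and 2.56. The kinases of striated muscle Mylk2 and Mylk4 fell, at -4.89 and -4.36 in the severe model.

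**Figure D4:**
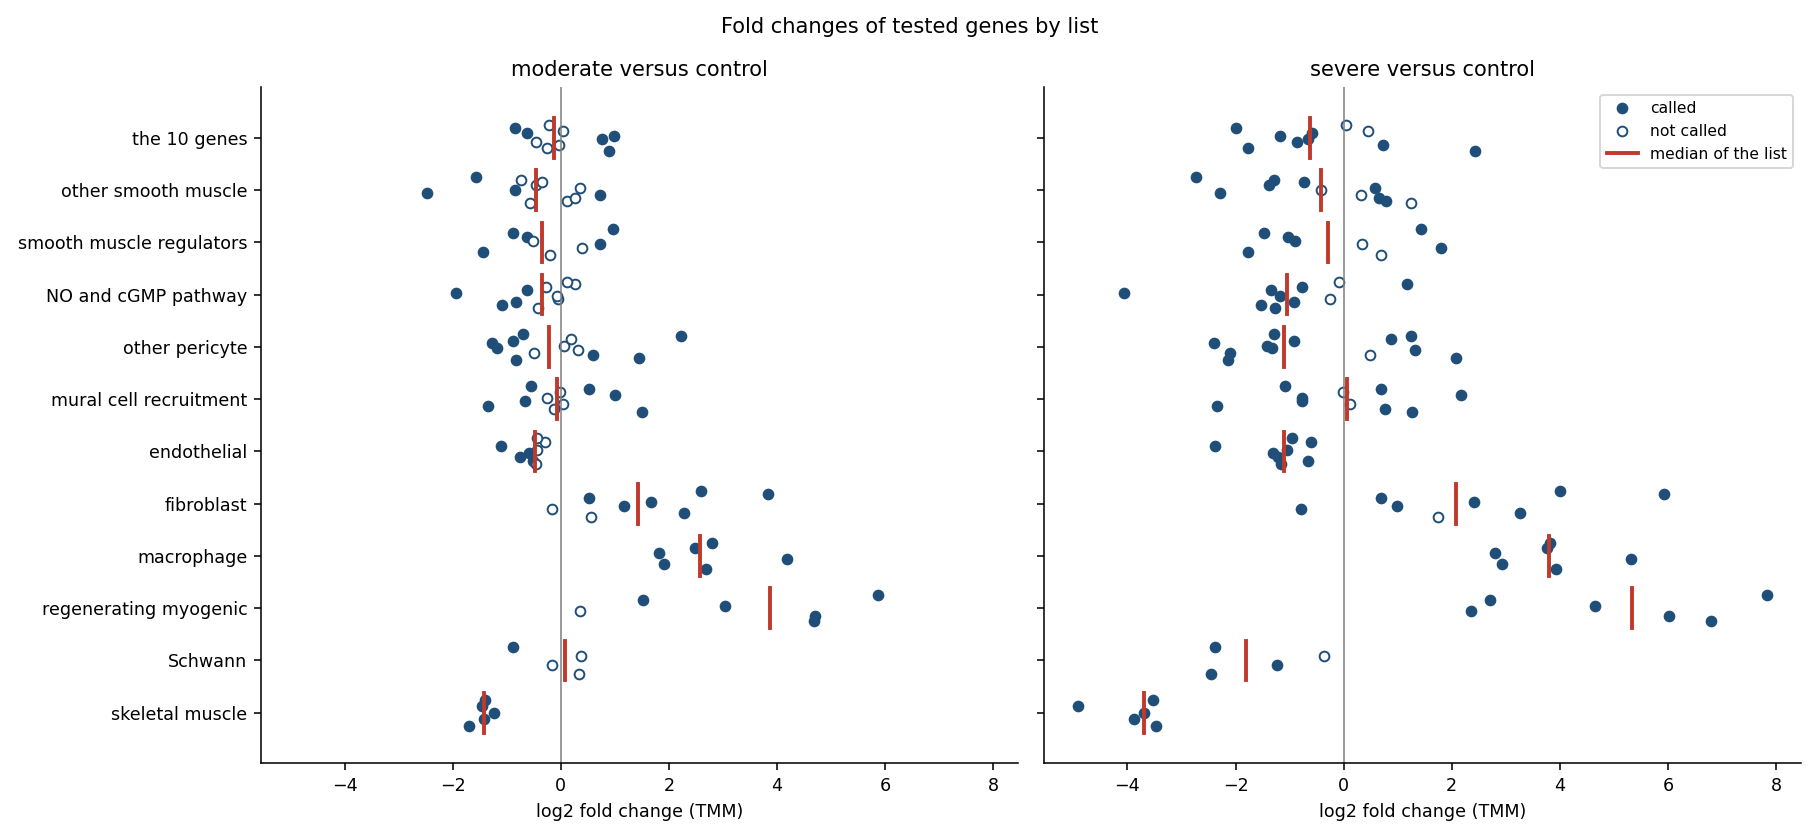
Log2 fold changes with TMM factors (horizontal axes) of the tested genes of each list in the moderate and severe models. Each point is 1 gene, filled where called and open where not, and the red line is the median of the list. The 10 genes, Myh11 and Mrvi1 included, lie on both sides of 0 with medians of -0.13 and -0.62, the endothelial medians are -0.49 and -1.10, and the macrophage medians are 2.58 and 3.79.

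Markers of other cell types moved with these genes, and their part in the results was not tested. None of the 8 endothelial markers (Pecam1, Cdh5, Kdr, Tie1, Emcn, Esam, Cldn5 and Egfl7) was called higher by edgeR in either model, and 4 fell in moderate and 8 in severe mice. Over all genes, 17.0% fell in moderate and 27.9% in severe mice. Without TMM factors 0 of the 8 markers were higher and 1 lower, then 2 and 1. Their summed level was 195 to 225 CPM in controls, 122 to 161 CPM in moderate mice and 83.8 to 103 CPM in the severe model. In TPM, which holds no TMM factor, the endothelial sum was 83.1 to 97.5 in controls and 93.2 to 110 in the severe model. Per unit of Pecam1 within a library, Rgs5 was 4.31 to 5.04 in controls, 3.03 to 3.62 in the moderate model and 1.58 to 1.90 in the severe model. Rgs5 was thus lower relative to Pecam1, and the groups did not overlap. This does not extend to all endothelial markers. In control, moderate and severe mice, mean Rgs5 was 73.5, 57.4 and 42.8 TPM. Pecam1 rose on that scale, at 15.45, 17.54 and 23.93 TPM, while Kdr fell, at 6.07, 3.91 and 2.76 TPM. Pdgfrb per Pecam1 was 0.275 to 0.358 in controls, 0.369 to 0.385 in the moderate model and 0.517 to 0.830 in the severe model.

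Markers of fibroblasts, macrophages and regenerating muscle were mostly higher, and those of Schwann cells were not. Of 8 fibroblast markers, 6 were called higher in each model, and Dcn was called lower in the severe model at -0.79 (adjusted p = 2.88e-05), though all 8 were higher there with library size alone. The sum of the 8 was 645 to 1597 CPM in controls and 4647 to 6159 CPM in the severe model. All 6 macrophage markers were called higher in both models, at 63.2 to 77.0 CPM in controls and 794 to 902 CPM in the severe model. Of 6 genes of regenerating muscle (Pax7, Myod1, Myog, Myh3, Myh8 and Mymk), 5 rose in moderate and 6 in severe mice. Their sum was 21.2 to 28.8 CPM in controls, 331 to 592 CPM in moderate mice and 1251 to 1778 CPM in the severe model. Of 4 Schwann cell markers, 1 fell in moderate and 3 in severe mice. Over all genes, 24.4% rose and 17.0% fell in moderate mice, and 32.9% and 27.9% in severe mice.

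The genes whose levels most resembled Myh11 and Mrvi1 over the 12 mice were ranked by the Pearson correlation of log2 CPM. For Myh11 these were Tbc1d4 (0.967), Nampt (0.966), Ramp1 (0.963), Gcsh (0.960) and Tollip (0.958). Ramp1, a subunit of the receptor for the vasodilator peptide CGRP, was at 17.0 to 27.9 CPM in controls, 44.2 to 57.4 CPM in moderate mice and 8.70 to 18.8 CPM in the severe model. For Mrvi1 they were Cmas (0.958), Tmtc1 (0.934), Tmx2 (0.933), Dctn3 (0.924) and Iqcg (0.916). Tmtc1 was at 134 to 195 CPM in controls, 297 to 344 CPM in moderate mice and 78.9 to 138 CPM in the severe model. Levels highest in the moderate mice follow from ranking genes by their likeness to Myh11 and Mrvi1. The severe mice overlapped the controls for both Ramp1 and Tmtc1.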

How the data were processed

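Gastrocnemius poly(A) RNA of 12 mice was sequenced as single reads of 50 bases. The authors mapped reads to mm10 transcripts with RSEM 1.2.4 (Bowtie; TopHat2 2.0.8b for unaligned reads) and deposited expected counts of 37748 genes without normalization. The authors also deposited TPM from the same estimates.

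Expected counts were rounded and tested with edgeR 4.0.16 in R 4.3.3 (genes kept by filterByExpr, TMM scaling, the robust quasi-likelihood test, all 4 groups fitted together), with Benjamini-Hochberg adjustment over 16679 genes. Standard errors were derived from the F statistic, and 95% intervals are 1.96 standard errors to each side. For 3 mice in each of 2 groups the smallest p of an exact permutation test is 0.10. The 10 genes and all lists were chosen with earlier results of these data known. Besides the 10 genes, up to 4 called genes with the largest change per list were named, as were paralogs, the partners Prkg1, Itpr1 and Pdgfb, and the 5 closest profiles of Myh11 and Mrvi1. Myl9, Cald1, Csrp1, Ppp1r12a and Pde5a were named after their values were seen. Alternatives were scaling by median-of-ratios or by library size alone, the Wald test of DESeq2 1.42.0, limma 3.58.1 on log2(TPM + 1), 2 other count filters, only the 2 groups compared, 2 other fold thresholds and each mouse left out. Library size with the 20 most abundant control genes left out was added after seeing the data. The edgeR, DESeq2 and limma scripts were run on simulated counts in which few genes changed, in equal numbers up and down. limma was given CPM there in place of TPM. That simulation held no shift of composition like the one between these groups, so it cannot judge the choice of scaling. Figures were drawn with matplotlib 3.10.9.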

Additional observations from a re-analysis of the deposited data

Results flagged for a closer look

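The change against control differed between the moderate and severe models for 4 of the 8 genes that were not chosen on this contrast, by the direct comparison of the 2 models in edgeR, where 36.5% of all genes were called. Acta2 was higher in the severe than in the moderate model by 1.54 on the log2 scale, with no overlap of the mice. Rgs5 was at -1.14 and Cnn1 at -1.52 in the severe relative to the moderate model, and the mice did not overlap in TMM-scaled CPM for either gene. With library size alone Rgs5 was at -0.45 (adjusted p = 0.00491) and Cnn1 at -0.84 (adjusted p = 0.131), and neither was called. Cspg4 was at 0.76, a value that was 0.46 and no longer called without severe mouse 1, and 1.47 and called with library size alone.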

How the results depend on the processing

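No paired analysis was possible because the labels number mice by an identity of their own and share no replicate number between groups. Counts of the 10 genes here include Myh11 and Mrvi1, which were chosen on the contrasts of the models. Under library size alone, of the 10 genes edgeR called 5 up and 0 down in the moderate model, 6 and 1 in the severe model, and 5 and 2 between the models, with 8764 and 752, 12580 and 1070, and 9648 and 823 of all genes. With limma on log2(TPM + 1), 0 of the 10 were called lower in the moderate model, 4 higher and 1 lower in the severe model, and 4 and 1 between the models, with 749 of all genes lower in the moderate model, 10722 and 997 in the severe model, 8064 and 645 between the models and 1 higher in FLExD mice. With the 20 most abundant genes left out of the library size, 1 of the 10 was lower in the moderate model, 4 higher and 3 lower in the severe model and 4 higher between the models, with 1421 of all genes lower, 8964 and 2405, and 5404 and 1804. With a log2 fold change of at least 1, 0 and 0 of the 10 were called in the moderate model, 1 and 3 in the severe model and 1 higher between the models, with 2648 and 1172 of all genes in the moderate model, 2928 lower in the severe model and 1356 and 1391 between the models. In FLExD mice DESeq2 called 4 genes higher and 3 lower, and the fit of only the 2 groups called 0 lower.

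Directions turned under library size alone in the moderate model for Cspg4 (0.57), Itpr1 (0.56) and Tek (0.057). In the severe model they turned for Myh11 (0.12), Mylk (0.72), Mrvi1 (0.64), Mcam (0.44), Sncg (0.0098), Gucy1a2 (0.035), Prkg1 (1.21), Itpr1 (1.05), Pdgfb (0.53), Tek (0.21), Actc1 (0.31) and Myh10 (1.18), and between the models for Srf (0.10), Pdgfb (0.18) and Tek (0.16). With limma on TPM they turned in the severe model for Myh11 (0.031), Mylk (0.23), Mrvi1 (0.24), Mcam (0.26), Prkg1 (1.03), Itpr1 (1.03), Pdgfb (0.38), Tek (0.11), Actc1 (0.30) and Myh10 (0.85), and between the models for Srf (0.012), Nos3 (0.0030), Itpr1 (0.69), Pdgfb (0.17) and Tek (0.16). With the 20 genes left out, Mylk turned to 0.028 in the severe model. These scalings move the median of all genes, by construction. Turns of values called under neither setting are not counted.

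Leaving out each mouse in turn, edgeR called 3 to 3 of the 10 genes up and 2 to 3 down in the moderate model, 1 to 3 and 4 to 6 in the severe model, 1 to 3 and 3 to 5 between the models and 0 to 0 in either direction in FLExD mice. Over all genes these were 3650 to 3979 and 2552 to 3000, then 5274 to 5523 and 4426 to 4656. Between the models they were 2300 to 2972 and 2572 to 3258, and in FLExD mice 0 to 1 and 1 to 1. The counts of the 10 genes include Myh11 and Mrvi1, chosen on the contrasts of the models, so nothing is read from their steadiness. With all mice those counts were 3 and 2 in the moderate model, 2 and 6 in the severe model, and 2 and 4 between them.

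The counts of Cnn1 limit its fold change, and 3 mice per group limit every interval.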
